A study of Mus musculus with 65 samples.

Results

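SYCP3 chromatin peaks of mice that lack MEI4 were set against those of wild-type mice. The members are the 1911 SYCP3 peaks of the wild type and the 1125 SYCP3 peaks of Mei4KO, 3036 of the 97260 peaks in the 24 deposited lists of the series. A peak was called shared where it overlapped a peak of the other list by at least 1 bp. This gave 1598 wild-type-only peaks, 813 Mei4KO-only peaks, and a shared class of 313 wild-type or 312 Mei4KO peaks, since a few peaks had more than 1 partner.

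The series mapped meiotic proteins by chromatin immunoprecipitation and sequencing in 65 samples of synchronised mouse testis. All samples are labelled C57BL/6JCrl, whole testis and leptotene to zygotene cells (L/Z), the stages of early meiotic prophase in which DNA breaks form. Male pups 1.5 days old were fed WIN 18,466, which blocks the making of retinoic acid, for 7 to 10 days. They then received a single injection of retinoic acid, and testes were taken 8 days later, when the labels' protocol puts leptotene and zygotene cells at 80 to 95%. The SYCP3 groups used here were the wild type (2 samples), Mei4KO (Mei4tm1Bdm, 2 samples), Prdm9KO (B6;129P2-Prdm9tm1Ymat/J, 1 sample), Spo11KO (Spo11tm1Mjn, 1 sample), Iho1KO (Iho1tm1.2Atot, 1 sample) and Hormad1KO (Hormad1tm1.2Atot, 2 samples). Where the series holds a protein's own knockout, its signal was subtracted by the authors, per the series' design text. All SYCP3 lists therefore share 1 Sycp3KO (Sycp3tm1Hoog) sample as their background.

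SYCP3 is a coiled-coil protein of the meiotic chromosome axis, the protein core from which chromatin loops emanate and on which homologous chromosomes later pair. MEI4 works with REC114 and IHO1 at the axis and is needed for SPO11 to make the DNA double-strand breaks that start recombination. PRDM9 sets where most breaks form in mice, and DMC1, the meiotic recombinase, coats the single-stranded DNA at them, so that a DMC1 peak marks a break hotspot. HORMAD1 is an axis protein that anchors IHO1. CTCF binds DNA at the bases of chromatin loops together with cohesin, and cohesin is also a part of the meiotic axis.

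The Mei4KO-only peaks lay for the most part at the start of genes, and some of these genes encode the meiotic axis itself. The 200 bases before the start of 6 such genes are shown because each lies whole within a Mei4KO-only peak, and because the base composition of these promoters is described further on. They are, in the order printed, Sycp2 (axis protein that binds SYCP3), Sycp3 itself, Smc3 (cohesin subunit), Dazl (germ-cell RNA-binding protein), Meioc (a factor that keeps spermatocytes in meiotic prophase) and Rpl35 (protein of the large ribosomal subunit). The positions are chr2:178407659-178407858 (minus strand), chr10:88459387-88459586 (plus), chr19:53600196-53600395 (plus), chr17:50293621-50293820 (minus), chr11:102665385-102665584 (plus) and chr2:39005132-39005331 (minus). Sequences and gene starts are from RefSeq on GRCm38.p6 and read 5′ to 3′ toward the gene. Capitals mark every match, on either strand, of short strings known from promoters: the CCAAT box (CCAAT), an ETS-type string (CCGGAAG), the GC box (CCCGCCC), the CRE (TGACGTCA), a YY1-type string (ATGGCGGC), an NRF1-type string (GCGCATGCG), a piece of the CTCF motif (CCCTC), the TATA box (TATAAA) and a MYB-type string (AACNGTT). Each string was searched on its own, so matches may overlap.
Sycp2: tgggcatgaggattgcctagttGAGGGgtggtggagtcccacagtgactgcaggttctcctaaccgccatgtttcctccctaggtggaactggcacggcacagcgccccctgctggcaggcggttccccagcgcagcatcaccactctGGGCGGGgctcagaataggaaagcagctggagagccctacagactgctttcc
Sycp3: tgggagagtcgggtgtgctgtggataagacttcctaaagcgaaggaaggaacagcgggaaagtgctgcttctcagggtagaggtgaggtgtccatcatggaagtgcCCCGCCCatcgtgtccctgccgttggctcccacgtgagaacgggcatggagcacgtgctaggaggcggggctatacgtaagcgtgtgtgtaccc
Smc3: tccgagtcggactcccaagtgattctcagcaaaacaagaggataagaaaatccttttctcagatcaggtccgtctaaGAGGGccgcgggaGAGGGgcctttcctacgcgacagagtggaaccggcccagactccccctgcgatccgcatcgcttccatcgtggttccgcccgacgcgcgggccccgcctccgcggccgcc
Dazl: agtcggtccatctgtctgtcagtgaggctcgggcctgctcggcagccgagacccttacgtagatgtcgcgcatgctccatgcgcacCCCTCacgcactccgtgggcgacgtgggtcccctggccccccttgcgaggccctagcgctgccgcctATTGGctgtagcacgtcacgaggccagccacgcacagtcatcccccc
Meioc: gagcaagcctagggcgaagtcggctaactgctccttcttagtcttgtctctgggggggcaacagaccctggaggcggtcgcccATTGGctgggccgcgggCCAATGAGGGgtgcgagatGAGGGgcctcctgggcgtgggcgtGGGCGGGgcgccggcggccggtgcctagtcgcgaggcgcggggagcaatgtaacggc
Rpl35: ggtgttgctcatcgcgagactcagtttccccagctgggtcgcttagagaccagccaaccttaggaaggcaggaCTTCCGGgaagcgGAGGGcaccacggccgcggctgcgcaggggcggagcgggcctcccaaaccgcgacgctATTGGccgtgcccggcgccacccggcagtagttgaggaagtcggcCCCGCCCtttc

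Most wild-type SYCP3 sites were not in the Mei4KO list. Of the 1911 wild-type peaks, 313 had an overlapping Mei4KO peak, which is the share called in this comparison, 16.4% (Wilson 95% interval 14.8 to 18.1). Of the 1125 Mei4KO peaks, 312 had an overlapping wild-type peak, the share called in the other direction being 27.7% (25.2 to 30.4). Intervals here and further on take each peak as independent and allow for counting error alone. There was 1 peak list per genotype, so no spread between samples enters any value.

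The border between shared and unshared peaks was sharp. Only 3 wild-type-only peaks and 2 Mei4KO-only peaks lay within 1 kb of a peak of the other list without touching it. The median distance to the nearest peak of the other list was 793 kb for wild-type-only peaks and 299 kb for Mei4KO-only peaks. On the shared side, all 314 overlapping pairs had in common at least 50% of the shorter peak, and the smallest overlap was 445 bp. Among the 308 pairs with exactly 1 partner each, the centres lay a median of 144 bp apart and within 500 bp in 259 (84.1%). The peaks of a pair were also about as wide in both genotypes, with a median ratio of Mei4KO to wild-type width of 0.971. The 23 pairs at hotspots differed from this pattern, with a median wild-type width of 4828 bp, a median Mei4KO width of 2336 bp and a median ratio of 0.566.

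The 3 classes lay at different kinds of site. Of the wild-type-only peaks, 1123 (70.3%) overlapped a wild-type DMC1 hotspot, 302 (18.9%) a wild-type CTCF peak and 127 (7.95%) the start of a protein-coding gene, with 1 kb added to each side of the start. Among shared peaks, counted as wild-type peaks, CTCF led with 194 (62.0%), while hotspots held 24 (7.67%) and gene starts 43 (13.7%). Of the Mei4KO-only peaks, 636 (78.2%) lay at gene starts, 192 (23.6%) at CTCF peaks and 127 (15.6%) at hotspots. Of the 636 at gene starts, 136 (21.4%) met CTCF, while 4162 of all 21896 protein-coding genes had a CTCF peak at the start. The share at gene starts was higher among Mei4KO-only peaks than among wild-type-only peaks by 70.3 percentage points (Newcombe 95% interval 67.0 to 73.2) and than among shared peaks by 66.4 points (61.3 to 70.5). The share at CTCF peaks was higher among shared than among wild-type-only peaks by 43.1 points (37.2 to 48.6), and Mei4KO-only peaks were below shared peaks by 38.6 points, with an interval of the fall from 32.3 to 44.5. Without hotspot peaks the difference of shared and wild-type-only peaks at CTCF was 19.4 points. Among the wider 50% of each list the differences at gene starts were 44.9 and 32.0 points. In the same wider peaks shared exceeded Mei4KO-only peaks at CTCF by 6.45 points (-3.81 to 17.3), which is not called. A difference was called where its interval excluded 0, and no p-value was computed.

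**Figure D1:**
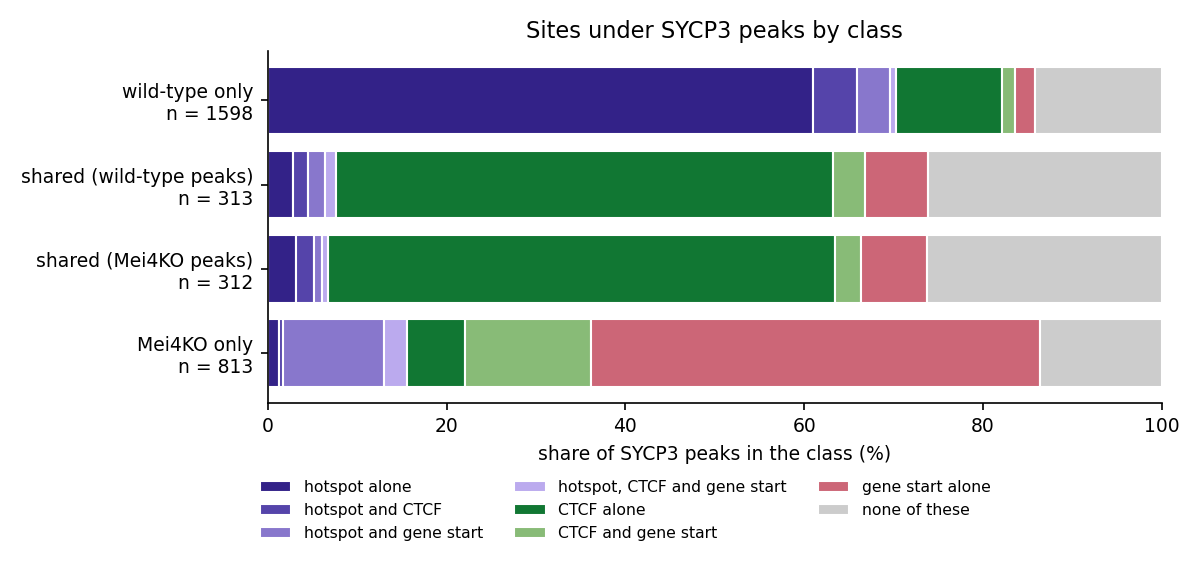
Share of SYCP3 peaks in each class (x axis, %) by the sites they overlap, with each peak counted in 1 of 8 combinations of DMC1 hotspot, CTCF peak and gene start; n is the number of peaks. The wild-type-only bar is mostly hotspots (61.0% at a hotspot alone), both shared bars are mostly CTCF alone (55.6% and 56.7%), and the Mei4KO-only bar is mostly gene starts (50.2% at a gene start alone).

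Between Mei4KO-only and wild-type-only peaks the direction of the difference at CTCF peaks changed with whether hotspot peaks were counted. Over whole classes Mei4KO-only peaks were at CTCF more often, by 4.72 points (1.29 to 8.27). With hotspot peaks left out of both classes the direction was the opposite, and the difference was -20.3 points (-25.7 to -14.8). With the 50% of CTCF peaks of higher score it was 0.477 points (-2.49 to 3.62), which is not called. Among the wider 50% of each list it was 21.4 points.

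Wild-type SYCP3 sites at hotspots were nearly all missing from the Mei4KO list. Of the 984 wild-type peaks at a hotspot and at neither of the other sites, 9 were found in Mei4KO (0.915%, 0.482 to 1.73). The share was 5 of 84 where the hotspot peak also met CTCF, 6 of 64 where it also met a gene start, and 4 of 15 where it met both. Outside hotspots, 174 of 364 peaks at CTCF alone were found (47.8%, 42.7 to 52.9), 22 of 58 at a gene start alone (37.9%, 26.6 to 50.8) and 82 of 309 at none of the 3 sites (26.5%, 21.9 to 31.7). Hotspot peaks were found less often than other wild-type peaks, with a difference of -35.7 points (-39.3 to -32.2). Seen from the Mei4KO list, 177 of 229 peaks at CTCF alone were found in the wild type (77.3%, 71.4 to 82.2), against 37 of 673 peaks at gene starts (5.50%, 4.01 to 7.49).

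**Figure D2:**
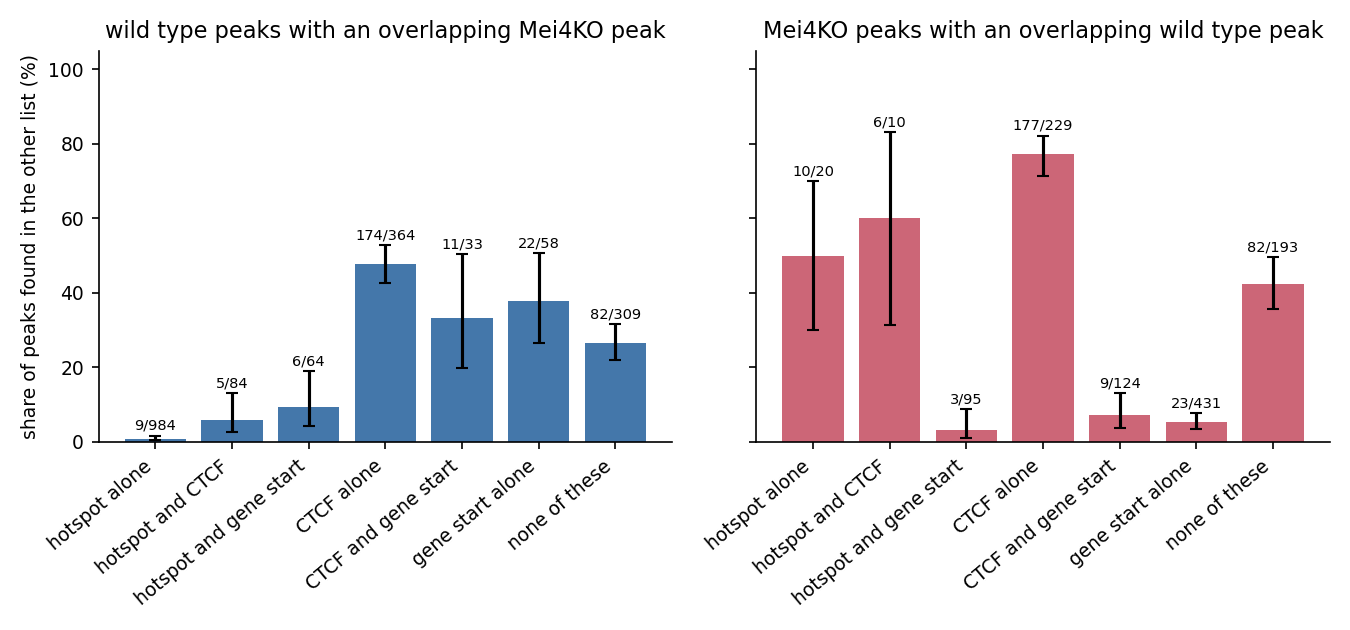
Share of SYCP3 peaks of each list that overlap a peak of the other list (y axis, %), by the site of the peak; bars are shares, lines are Wilson 95% intervals and the printed counts are peaks found of all peaks of that kind. Peaks at a hotspot, CTCF and a gene start together are not drawn. Wild-type peaks at a hotspot alone have the lowest bar of the left panel (9 of 984), and Mei4KO peaks at CTCF alone the highest of the right panel (177 of 229).

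The strength of a hotspot, given by the authors' DMC1 value, went with whether its SYCP3 peak was found, although the weak hotspots held few SYCP3 peaks. Hotspots were divided into quartiles by the value over the whole list of 13808. In the strongest quartile 13 of 1105 wild-type SYCP3 peaks were found in Mei4KO (1.18%, 0.689 to 2.00). The other quartiles, from the weakest up, gave 3 of 13, 5 of 16 and 3 of 13. The median DMC1 value was 2592.5 (quartiles 1684 to 3975) at the 1123 wild-type-only hotspot peaks and 590 (quartiles 106 to 1846) at the 24 shared ones, a difference of 2002.5 (742 to 2498). Among the wider 50% of each list the difference was 2635.5, with an interval of -447 to 2884 that includes 0. The 5 wild-type-only peaks with the highest DMC1 values had values from 17661.5 to 20822.5. They lay at chr11:89607577-89616426 within Ankfn1, chr2:38133057-38141261 within Dennd1a, chr1:68485783-68492155 within Erbb4 (a receptor tyrosine kinase), and at chr1:67958395-67965615 and chr2:98105293-98112681, where no gene is annotated.

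The 24 hotspot peaks found in Mei4KO often had another site beneath them. CTCF or a gene start was present at 15 of the 24 (62.5%, 42.7 to 78.8), against 148 of the 1123 not found (13.2%, 11.3 to 15.3). IHO1 peaks of Mei4KO met 11 of the 24 and 13 of the 1123 (1.16%). HORMAD1 peaks of Mei4KO likewise met 11 of the 24 and 36 of the 1123 (3.21%). Wild-type MEI4 peaks, by contrast, met about the same share of both, 14 of 24 (58.3%, 38.8 to 75.5) and 712 of 1123 (63.4%, 60.5 to 66.2). The strongest hotspot with a shared peak, DMC1 value 18957.5, lay at chr10:92674652-92684712 beside an end of Nedd1, a gamma-tubulin recruiting protein with no listed start. The next, value 11947.5, lay at chr13:95388216-95396834 over a CTCF peak, and the one after it, value 5532.5, at chr2:155226819-155238525 over the start of Dynlrb1 and an end of Itch, which has no listed start.

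Over whole classes, shared peaks had the most axis partners in both genotypes. IHO1 peaks of Mei4KO overlapped 213 of the 312 shared Mei4KO peaks (68.3%) and 112 of the 813 Mei4KO-only peaks (13.8%), a difference of 54.5 points (48.6 to 59.9). HORMAD1 peaks of Mei4KO overlapped 160 (51.3%) and 153 (18.8%), a difference of 32.5 points (26.3 to 38.5). Both proteins together met 35.6% of shared and 6.40% of Mei4KO-only peaks, and neither protein met 16.0% and 73.8%. As a whole class, wild-type-only peaks were also poor in the Mei4KO lists (11.5% for IHO1 and 14.2% for HORMAD1). In the wild-type lists they met IHO1 in 43.9% and HORMAD1 in 49.1%. Most wild-type-only peaks lay at hotspots, where 1.16% met IHO1 and 3.21% HORMAD1 of Mei4KO. At CTCF outside hotspots, 56.6% of wild-type-only and 76.8% of shared wild-type peaks met IHO1 of Mei4KO. For HORMAD1 of Mei4KO the shares there were 60.4% and 56.8%. The Mei4KO HORMAD1 list is the longer of the HORMAD1 lists, with 5275 peaks against 1715 in the wild type, and the Mei4KO IHO1 list is the shorter, with 1036 against 1589.

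The difference in partners was smaller where gene starts were left out. Without peaks at gene starts, the share at Mei4KO IHO1 peaks was still higher among shared than among Mei4KO-only peaks, by 31.4 points (22.1 to 39.9), and for HORMAD1 the difference was 9.50 points (0.0887 to 18.6). Among the 636 Mei4KO-only peaks at gene starts, 42 (6.60%) met IHO1 and 81 (12.7%) met HORMAD1 of Mei4KO. Among the 177 elsewhere, 70 (39.5%) met IHO1 and 72 (40.7%) met HORMAD1. Among the wider 50% of each list the differences were 21.0 points for IHO1 and 14.1 points for HORMAD1. Among peaks at CTCF the difference was 54.4 points (45.4 to 62.0) for IHO1 and 24.95 points (15.2 to 34.1) for HORMAD1.

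Within the wild-type list, the presence of IHO1 in Mei4KO went with the finding of a SYCP3 peak there. Outside hotspots, 127 of 206 wild-type peaks that met IHO1 in both genotypes were found in Mei4KO (61.7%, 54.9 to 68.0). Where IHO1 was in the Mei4KO list alone, 74 of 165 were found (44.8%, 37.5 to 52.5), where it was in the wild type alone, 30 of 131 (22.9%, 16.5 to 30.8), and where it was in neither, 58 of 262 (22.1%, 17.5 to 27.5). For HORMAD1 the order was different. The shares were 54.4% with HORMAD1 in both, 42.7% in the wild type alone, 31.1% in Mei4KO alone and 21.7% in neither, and the intervals for the wild type alone (36.3 to 49.3) and Mei4KO alone (24.2 to 38.9) overlapped.

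CTCF peaks under shared SYCP3 peaks had higher scores than those under Mei4KO-only peaks. The median of the authors' CTCF score was 3.94 (quartiles 2.96 to 4.90) at 194 shared Mei4KO peaks and 2.40 (quartiles 1.64 to 3.54) at 192 Mei4KO-only peaks, a difference of 1.54 (1.13 to 1.88). Among the wider 50% of each list the difference was 0.258 (-0.909 to 0.840), which includes 0. The whole CTCF list of 32676 peaks had a median of 1.92. The scores also differed by position. Mei4KO-only CTCF peaks at gene starts had a median of 2.02 (136 peaks) and those elsewhere 3.31 (56 peaks, interval of the median 3.03 to 3.79), while shared CTCF peaks away from gene starts had 4.01 (183 peaks, 3.74 to 4.23). Among the Mei4KO peaks over the top quartile of CTCF scores and not at hotspots, 144 of 211 were found in the wild type (68.2%), against 6 of 22, 5 of 38 and 31 of 82 in the lower quartiles. The same split of wild-type peaks gave 37.5%, 40.0%, 50.8% and 46.6% from the lowest quartile up, with intervals that overlapped throughout.

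The shared peaks with the highest CTCF scores lay at chr14:124801567-124802206 (score 37.3, no annotated gene), chrX:75672549-75674918 (13.5, a pseudogene), chrX:169993073-169997116 (11.2, no annotated gene), chr2:147177185-147179474 (9.74, within Nkx2-2, a homeobox transcription factor gene) and chr8:45934367-45936043 (8.43, at the start of Ccdc110). High scores among Mei4KO-only peaks were found at chr1:121567143-121568292 (9.67, at the start of Ddx18, an RNA helicase), chr5:130853143-130853863 (8.76, no annotated gene), chr5:123906685-123907789 (8.43, at the start of Denr, a translation reinitiation factor) and chr1:88286682-88288725 (8.37, no annotated gene).

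Many gene starts had a SYCP3 peak in Mei4KO and none in the wild type. Of 21896 protein-coding genes, 728 had a Mei4KO-only peak at the start, which is a background of 3.32%. Shared peaks met the starts of 47 genes (0.215%) and wild-type-only peaks those of 131 (0.598%). The strand is known for the 17491 genes with a start in the reference table used, which holds none on chromosome 18. For the other 4405 genes either end counted as a start. With listed starts alone, 502 of the 813 Mei4KO-only peaks (61.7%) and 65 of the 1598 wild-type-only peaks (4.07%) lay at a start. The 3′ end of a gene, away from any start, held 4.31% of Mei4KO-only peaks, 11.9% of shared Mei4KO peaks and 6.26% of wild-type-only peaks.

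These peaks were narrow and sat just inside the gene. At the 502 listed starts the centre of the Mei4KO-only peak lay a median of 160 bp downstream of the start (quartiles 4.13 to 328.5), and within 500 bp of it in 420 cases (83.7%). The peak covered the start itself in 483 (96.2%). Wild-type-only peaks at listed starts were centred within 500 bp in 14 of 65 (21.5%), and shared Mei4KO peaks in 9 of 26 (34.6%). The median width at gene starts was 1509.5 bp for Mei4KO-only, 3468 bp for shared Mei4KO and 4558 bp for wild-type-only peaks. Starts of genes on both strands lay under 55 of the 502 peaks. Among the 562 genes with such a peak at a listed start, 108 (19.2%) had the start of another gene on the opposite strand within 1 kb, against 1681 of all 17491 genes (9.61%). The genes were not matched for the base composition of their promoters, and 1 peak over such a pair could count both genes.

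**Figure D3:**
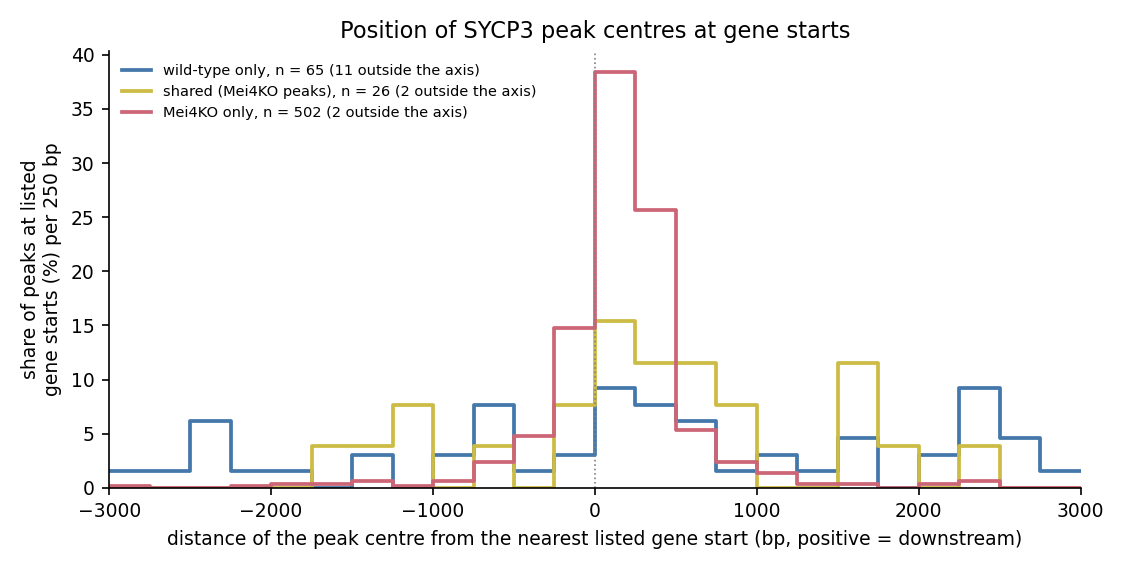
Distance of the peak centre from the nearest listed gene start (x axis, bp, positive in the direction of transcription) against the share of peaks of the class that lie at listed starts (y axis, % per 250 bp), for wild-type-only, shared and Mei4KO-only SYCP3 peaks. The Mei4KO-only line rises to a single narrow maximum just downstream of the start, where 83.7% of the 502 centres are within 500 bp of it, and the other lines are spread over several kb, with 11 wild-type-only, 2 shared and 2 Mei4KO-only centres outside the axis.

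Genes of meiosis were among those with a Mei4KO-only peak, beside many housekeeping genes. Of 11 genes of the axis and synaptonemal complex, 4 had one (36.4%), against 3.32% of all protein-coding genes. These were Sycp1 (chr3:102935037-102936236, the transverse filament of the synaptonemal complex), Sycp2 (chr2:178406408-178408298), Sycp3 (chr10:88458547-88463005) and Syce2 (chr8:84872039-84873119, a central element protein). Of 9 cohesin genes 1 did (11.1%), Smc3 (chr19:53599852-53601140). Of 21 recombination genes, 2 did (9.52%), among them Meiob (chr17:24803876-24805116, a single-strand DNA-binding partner of SPATA22, with no listed start, so that the peak lies at one or the other end). Of 17 germline transcription and RNA genes, 2 did (11.8%), Dazl (chr17:50292680-50294194) and Meioc (chr11:102664733-102666452). None of the 9 break-formation genes, which include Spo11, Mei4, Iho1 and Prdm9, had a SYCP3 peak of any class at its start. With so few genes, 1 of 9 and 0 of 9 cannot be told from the share of all genes. The peaks at the 9 meiotic genes were 1081 to 4459 bp wide, the widest being that of Sycp3. Sycp3 is also the gene disrupted in the subtracted Sycp3KO sample, and whether this bears on its peak was not tested. None of the 9 overlapped MEI4, IHO1 or HORMAD1 of the wild type or IHO1 or HORMAD1 of Mei4KO, and 2 overlapped CTCF, Sycp2 with a score of 5.89 and Syce2 with 2.19. Among all 636 Mei4KO-only peaks at gene starts the shares were 0.314%, 5.82%, 6.13%, 6.60% and 12.7% in this order, and 21.4% for CTCF. With 9 peaks, counts of 0 and 2 cannot be told from these shares.

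The housekeeping lists, drawn by gene symbol, had Mei4KO-only peaks at shares above the 3.32% of all protein-coding genes. That background takes in promoters of every base composition. Of promoters with 5 to 8 CpG per 100 bases 4.04% had such a peak, and of those with 8 or more 6.41%. The lists were not matched for CpG, so a preference for these kinds of gene was not tested. The counts were 7 of 101 cytosolic ribosomal protein genes (6.93%; among them Rpl5, Rpl27a, Rpl35, Rps15 and Rps15a, from a list whose symbols also take in Rps6k kinases), 6 of 78 mitochondrial ribosomal protein genes (7.69%; Mrps10, Mrps15, Mrps22, Mrps25, Mrpl12 and Mrpl57), 4 of 40 proteasome genes (10.0%; Psma3, Psmb4, Psmc2 and Psmd6) and 7 of 66 genes of RNA polymerase II and splicing (10.6%; Polr2l, Snrpb, Sf3a2, Srsf7, Hnrnpu, Hnrnpr and Hnrnph3). Of 1110 olfactory receptor genes, which are expressed mainly in the nose, none had a Mei4KO-only or shared peak and 2 had a wild-type-only peak (Olfr523 and Olfr1120). Genes that mark other cells of the testis were too few to be told from the share of all genes. None of 10 Sertoli cell genes and none of 11 spermatid genes had a peak of any class, and of 10 Leydig and peritubular genes Cyp11a1, an enzyme of steroid synthesis, had a wild-type-only peak. A peak list holds no level of expression, so the loss of Mei4 and the cell types were not checked from these data.

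Histone genes, also listed by symbol, had Mei4KO-only peaks over clusters of neighbouring genes. Of 67 histone genes, many of which encode nearly identical proteins within a family and lie in clusters, 14 (20.9%) had a Mei4KO-only peak. These came from 9 separate peaks of 583 to 6824 bp, all but 1 of them in the cluster on chromosome 13. H2bc7, H2ac7 and H3c4 were under 1 peak at chr13:23573048-23578055, and H2bc4, H4c3 and H1f6, the testis-specific linker histone, under another at chr13:23693221-23700044. H4c4 between them had a shared peak at chr13:23580277-23583650 in the wild type. Of the 9 Mei4KO-only peaks, 6 were in the SYCP3 list of Prdm9KO, 6 in that of Hormad1KO, and 6 met HORMAD1 of Mei4KO. Over all 636 Mei4KO-only peaks at gene starts the shares were 19.8%, 6.45% and 12.7%. Of the 9 peaks at meiotic genes 0 were in any of these 3 lists, a count that cannot be told from those shares. Wild-type IHO1 met 5 of the 9 histone peaks and wild-type HORMAD1 also 5. The SYCP3 list of Spo11KO held 8 of the histone peaks and that of Iho1KO all 9, against 73.6% and 86.9% of the 636. How reads that fit several copies were placed is not given in the sources used here.

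Promoters under Mei4KO-only peaks were rich in CpG. Over the 300 bases from 250 before to 50 after the start, the 617 promoters that met such a peak had a median of 8.67 CpG per 100 bases and a GC content of 64.7%, against 4.33 and 56.3% over all 21262 promoters. Promoters with 5 or more CpG per 100 bases made up 87.2% (84.3 to 89.6) of those with a Mei4KO-only peak, 61.3% (43.8 to 76.3) of the 31 with a shared peak, 36.2% (25.1 to 49.1) of the 58 with a wild-type-only peak and 46.8% of all. The richness in CpG was not particular to Mei4KO. The 3631 promoters with a SYCP3 peak of Iho1KO had a median of 9.33 CpG per 100 bases and a GC content of 67.0%. Of these, 90.4% had 5 or more CpG per 100 bases. The share of promoters with a Mei4KO-only peak was 0.0781% below 1 CpG per 100 bases, 0.491% from 1 to 3, 2.02% from 3 to 5, 4.04% from 5 to 8 and 6.41% (5.80 to 7.07) from 8 up.

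**Figure D4:**
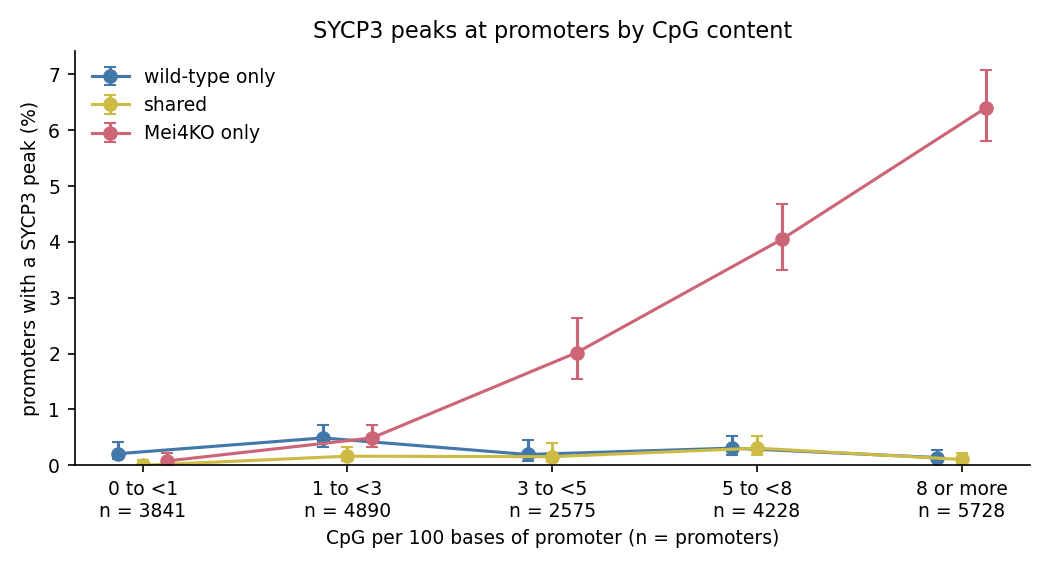
Share of promoters that meet a SYCP3 peak of each class (y axis, %) by CpG per 100 bases of the promoter (x axis, 5 classes with the number of promoters); points are shares and lines Wilson 95% intervals. The Mei4KO-only share runs from 0.0781% in the lowest class to 6.41% in the highest, while shared and wild-type-only shares stay below 0.5% in every class.

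Of the strings searched in the 300 bases, the ETS-type CCGGAAG was in 148 of the 617 promoters with a Mei4KO-only peak (interval 20.8 to 27.5%) and in 11.6% of all promoters. Among promoters with 5 or more CpG per 100 bases the values were 24.9% (21.4 to 28.7) and 19.7%. The GC box CCCGCCC was in 52.7% against 33.9% of all, and within the CpG-rich promoters in 56.9% (52.7 to 61.0) against 58.6%. The CCAAT box was in 37.3% against 38.2%, the TATA box TATAAA in 6.48% (4.80 to 8.71) against 12.6%, the MYB-type AACNGTT in 3.89% against 4.05%, and the CTCF piece CCCTC in 77.1% against 69.6%. The CRE was in 3.73% against 2.23%, the YY1-type string in 6.81% against 3.01% and the NRF1-type string in 5.02% against 2.35% of all promoters. Within the CpG-rich promoters these differences were smaller. The YY1-type string was there in 7.25% (5.35 to 9.76) against 5.59%, and the NRF1-type string in 5.39% (3.78 to 7.63) against 4.36%. For the CRE the interval was 2.57 to 5.89%, against 3.65%. The CTCF piece was in 79.4% (75.7 to 82.6) against 80.2%. The TATA box was not rarer there, at 5.76% (4.09 to 8.06) against 4.55%. Each of these intervals held the share of all CpG-rich promoters. Matches are a description of these letters and of no binding. In the sequences printed above, Meioc and Rpl35 hold the CCAAT box and the GC box, Rpl35 is the only one with the ETS-type string, and Sycp2, with 6 CpG in 200 bases, has the fewest CpG of the 6.

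The hotspots under Mei4KO-only peaks were weak ones at gene starts. Of the 127 such peaks at hotspots, 113 also lay at a gene start. Their median DMC1 value was 65 (quartiles 42.5 to 110) and the highest 1602, against 129 over the whole DMC1 list. In the weakest quartile of hotspots 53 of 3489 (1.52%) had a Mei4KO-only peak, of which 47 were at gene starts, and in the strongest quartile 8 of 3452 (0.232%). A gene start was present at 21.2% of hotspots in the weakest quartile and 3.68% in the strongest. The wild-type SYCP3 list met 0.373% of the weakest quartile and 28.7% of the strongest. Wild-type MEI4 met 6 of the 813 Mei4KO-only peaks (0.738%), 47.6% of wild-type-only peaks and 6.39% of shared wild-type peaks.

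Most Mei4KO-only sites were also in the SYCP3 lists of other mutants without breaks or without IHO1. Of the 813, 66.3% overlapped a SYCP3 peak of Spo11KO and 83.4% one of Iho1KO, but 18.3% one of Prdm9KO and 11.2% one of Hormad1KO. Shared Mei4KO peaks gave 69.2%, 85.9%, 44.6% and 68.6% in the same order, and wild-type-only peaks 32.9%, 23.2%, 6.38% and 19.4%. These lists differ in length (2369 peaks for Spo11KO, 5380 for Iho1KO, 607 for Prdm9KO and 823 for Hormad1KO) and share the subtracted Sycp3KO sample, so the shares are given side by side. At gene starts the Mei4KO-only peaks were found in Iho1KO in 86.9% and in Hormad1KO in 6.45%, and away from gene starts in 70.6% and 28.2%. All but 1 of the 9 peaks at meiotic genes were in the Spo11KO list, the exception being Smc3, and all but 1 in the Iho1KO list, the exception being Sycp2.

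**Figure D5:**
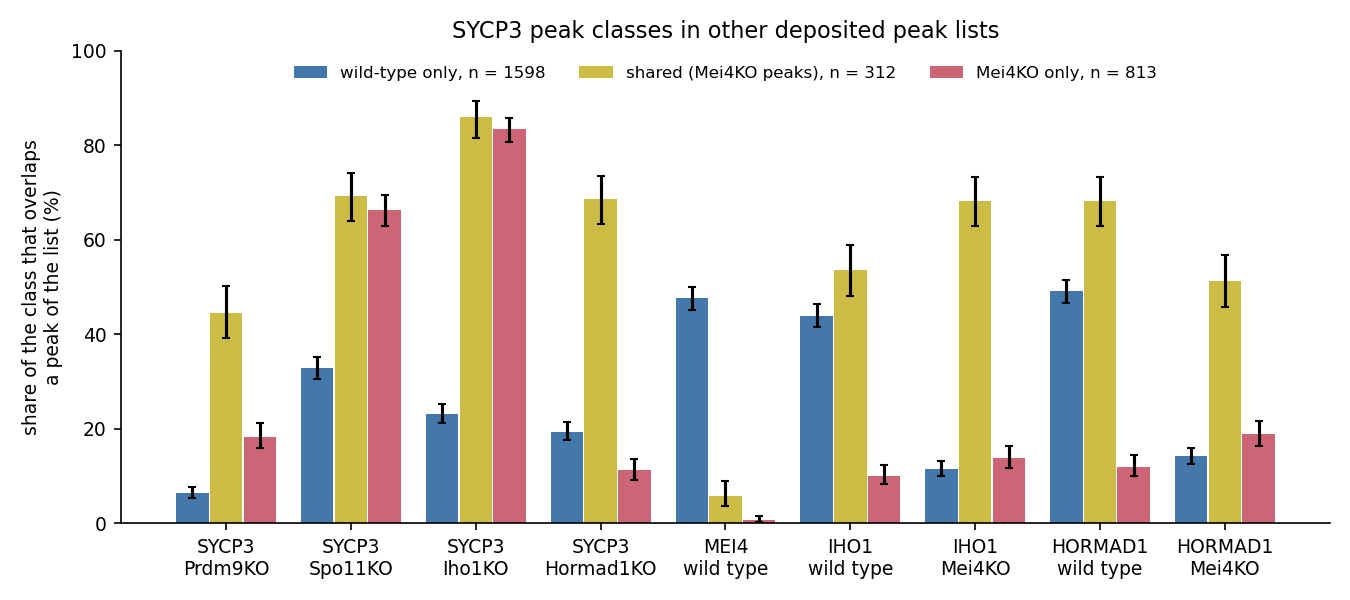
Share of each SYCP3 peak class (y axis, %) that overlaps a peak of other deposited lists (x axis, protein above genotype); bars are shares and lines Wilson 95% intervals. Mei4KO-only and shared peaks have bars of like height in the SYCP3 lists of Spo11KO and Iho1KO, while in Hormad1KO and in all IHO1 and HORMAD1 lists the shared bar stands above the Mei4KO-only bar.

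The widest Mei4KO-only peaks did not follow the narrow form. The 5 widest were chr17:30203786-30223176 over an end of Btbd9 (19391 bp), chr3:90364263-90379496 with no annotated gene (15234 bp), chr16:31876580-31890681 over the start of Meltf (14102 bp), chr12:110974189-110988096 over the start of Ankrd9 (13908 bp) and a 12105 bp peak over an end of Marchf3. Btbd9 and Marchf3 have no listed start, so which end lies there was not resolved. The 111 Mei4KO-only peaks at none of the 3 kinds of site were also wider than those at gene starts, with a median of 2071 bp, and 36.9% of them met IHO1 and 36.9% HORMAD1 of Mei4KO. The largest shared overlaps, from 8044 to 11321 bp, lay over the start of Map3k12 (chr15:102502497-102513964 in Mei4KO), over Tmem191c and Pi4ka (chr16:17269789-17280499), Mphosph8 (chr14:56690981-56702207), Crb2 and Dennd1a (chr2:37778244-37800008) and Galnt11 (chr5:25259520-25270866).

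The X chromosome held few Mei4KO-only peaks. It had 1 of the 813 (0.123%, 0.0217 to 0.693), with 4.41% of protein-coding genes. The X held 2.75% of wild-type-only peaks, a difference of -2.63 points (-3.56 to -1.73), and 2.88% of shared Mei4KO peaks. Few peaks on the X were also seen in other SYCP3 lists, with 47 of 5380 in Iho1KO and 19 of 2369 in Spo11KO. The cause was not tested. The single Mei4KO-only peak of the X lay at chrX:169976020-169976876 within Mid1, a gene at the border of the pseudoautosomal region. Of the 54 wild-type peaks on the X, 10 were found in Mei4KO (18.5%), near the 16.4% of all wild-type peaks.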

How the data were processed

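Chromatin immunoprecipitation peaks of 13 groups were used, 1 deposited list per group. The 11 lists of SYCP3, MEI4, IHO1 and HORMAD1 hold positions only. The CTCF list also has a score per peak deposited by the authors, written with a decimal comma, and the DMC1 list a signal value deposited by the authors, whose units are not named; all DMC1 values were multiples of 0.5. Both were used only within their own list, to rank peaks and to compare medians between classes. Bowtie2, MACS2 and mm10 are named, without versions or roles, in the submitters' processing notes. For SYCP3, MEI4, IHO1 and HORMAD1 the signal of the protein's own knockout was subtracted by the authors, as the design text of the series states. The series holds no sample of CTCF or DMC1 in its own knockout. Peak thresholds and whether replicates were pooled are not given in the sources used here, and the depth is unknown.

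Overlaps of at least 1 bp were computed in Python 3.11.15 with pandas 2.3.3 and checked against bedtools 2.31.1 and on simulated intervals. Shares have Wilson and differences Newcombe 95% intervals, a median has an order-statistic interval, and a difference of medians combines both intervals by the square root of summed squared distances. A difference was called where its interval excluded 0. Gene starts came from 21262 listed starts of 17491 genes (RefSeq, GRCm38.p6), plus both ends of 4405 genes without one, widened by 1 kb. Named were genes of 14 lists with a peak, and the 5 highest-ranked sites per class by DMC1 value, overlap, width or CTCF score. A few of these are not reported here. Members and lists were chosen with earlier results of these data known. Overlap, peak extent, chromosomes, width, site strength and gene set were varied, as given at the end.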

Additional observations from a re-analysis of the deposited data

How the results depend on the processing

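The 9 differences of shares between classes were recomputed under 70 alternatives, and 67 kept their direction and call. The exceptions concern CTCF. The difference of Mei4KO-only minus wild-type-only peaks at CTCF, 4.72 points, was -20.3 points without hotspot peaks and 0.477 points with the 50% of CTCF peaks of higher score. The difference of shared minus Mei4KO-only peaks at CTCF was 6.45 points (-3.81 to 17.3), no longer called, among the wider 50% of both SYCP3 lists. The cause of these changes was not tested. The same restriction to wide peaks moved 4 values: the share of wild-type peaks found in Mei4KO to 9.83%, the share of Mei4KO peaks found in the wild type to 16.9%, the difference in median DMC1 value to 2635.5 (-447 to 2884), and that in median CTCF score to 0.258 (-0.909 to 0.840), the intervals of both differences now including 0. The difference at gene starts, 70.3 points, ran from 44.9 (wider 50%) to 70.7. Listed starts alone, either end of every gene, peaks away from gene starts, and the settings for the counts of genes were chosen after seeing the data. The number of genes with a Mei4KO-only start peak ran from 562 to 696 under these, against 728, and that of meiotic genes from 7 to 9. No paired analysis was possible because each group has 1 peak list, attached to its replicate 1, and for the same reason no replicate could be left out. Depth is unknown, so a peak missing from a list may have been below its threshold.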
